A study of Mus musculus with 6 samples.

Results

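Aminoacyl-tRNA synthetase genes were followed in the RNA of single mouse blastocysts. Protein-coding genes were chosen by their GENCODE M21 symbol, namely a capital letter followed by ars, with or without a final 2, together with Farsa, Farsb and Eprs. This gave 37 genes of the 12149 in the table, of which 20 were counted as cytosolic and 17, whose symbols end in 2, as mitochondrial. All 37 genes that the rule finds in the annotation had values, and in every embryo each had at least 87 reads. The Dep embryos (3) were C57BL/6 blastocysts of embryonic day 3.5 that grew from zygotes injected with small RNAs of sperm from depressive males, at 2 ng/µl. The Ctl embryos (3) were blastocysts of the same strain and age whose zygotes received sperm small RNAs of normal males at the same concentration. Both groups were thus injected, cultured outside the mother and collected about 96 h later, 1 embryo per library. Whether embryos of a group share parents, and whether the small RNAs came from 1 male or several, is not given in the sources used here.

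Each synthetase joins 1 amino acid to its matching transfer RNA, using ATP, and so supplies the ribosome with charged tRNA. Mitochondria translate their own small set of mRNAs and use a separate set of nuclear-encoded synthetases, which are imported. Several cytosolic synthetases sit together in the multi-synthetase complex. Many cytosolic synthetase genes are also known as targets of Atf4, the transcription factor that is made when uncharged tRNA activates the kinase Gcn2.

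The libraries held 16543356 to 21548220 reads in listed genes. The embryo Dep 1 had no read in 691 of the genes, Dep 2 and Dep 3 had none in 5 and 23, and the Ctl embryos had none in 10 to 106. All 7 trophectoderm, 6 epiblast and 6 primitive endoderm markers had values, and the sums of the trophectoderm markers ranged from 40231 to 101116 normalized counts in Dep and from 46222 to 71466 in Ctl. Those of the epiblast ran from 5693 to 10914 in Dep and from 6007 to 9061 in Ctl, and those of the primitive endoderm from 18756 to 25226 in Dep and from 19616 to 22527 in Ctl. The primitive endoderm sums rest mostly on Dab2, with 22085, 12573 and 12918 in Dep 1, 2 and 3. In Ctl 1, 2 and 3 Dab2 had 15562, 15333 and 13162. Gata6 was lowest of all embryos in Dep 1 (3069). Pdgfra had 71.6, 1285 and 1615 in Dep 1, 2 and 3 and 595, 1446 and 41.5 in Ctl 1, 2 and 3. Dep 1 had 0 reads of Fgf4, Gata4, Sox17 and Sox7. Ctl 3 had 0 of Gata4, and 0.88 and 9.71 normalized counts of Sox17 and Sox7. Of the 8 markers of cumulus and granulosa cells and the 3 of blood, 0 were among the genes analysed. As whole embryos were lysed, fewer cells of a type and less RNA per cell cannot be told apart.

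Cytosolic synthetase transcripts were more abundant than those of their mitochondrial counterparts. Per exon length, cytosolic genes averaged from 6.70 FPKM (Cars) to 62.3 FPKM (Nars) in Dep and from 5.90 to 57.0 FPKM in Ctl for the same genes. Mitochondrial genes averaged from 1.54 FPKM (Mars2) to 23.3 FPKM (Rars2) in Dep and from 1.46 to 15.6 FPKM in Ctl, again with Mars2 lowest and Rars2 highest. The class medians were 24.7 FPKM for cytosolic and 5.32 FPKM for mitochondrial genes in Dep, and 21.4 and 4.33 FPKM in Ctl. In 17 of 18 pairs of genes for the same amino acid, the cytosolic gene had the higher FPKM in every embryo. The exception was Yars/Yars2, the tyrosine enzymes, whose ratio was 2.44, 0.94 and 2.27 in Dep 1, 2 and 3 and 1.11, 1.29 and 2.94 in Ctl 1, 2 and 3. The asparagine pair Nars/Nars2 lay at the other end with Farsb/Fars2 and Mars/Mars2, at a ratio of 20.9 ± 3.01 in Dep and 17.0 ± 3.02 in Ctl (SD, n = 3 each). The FPKM values divide by all annotated exon bases of a gene, which understates genes with exons that blastocysts do not use. Eprs, with 18102 such bases against a median of 4840 over cytosolic members, is the longest.

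**Figure D1:**
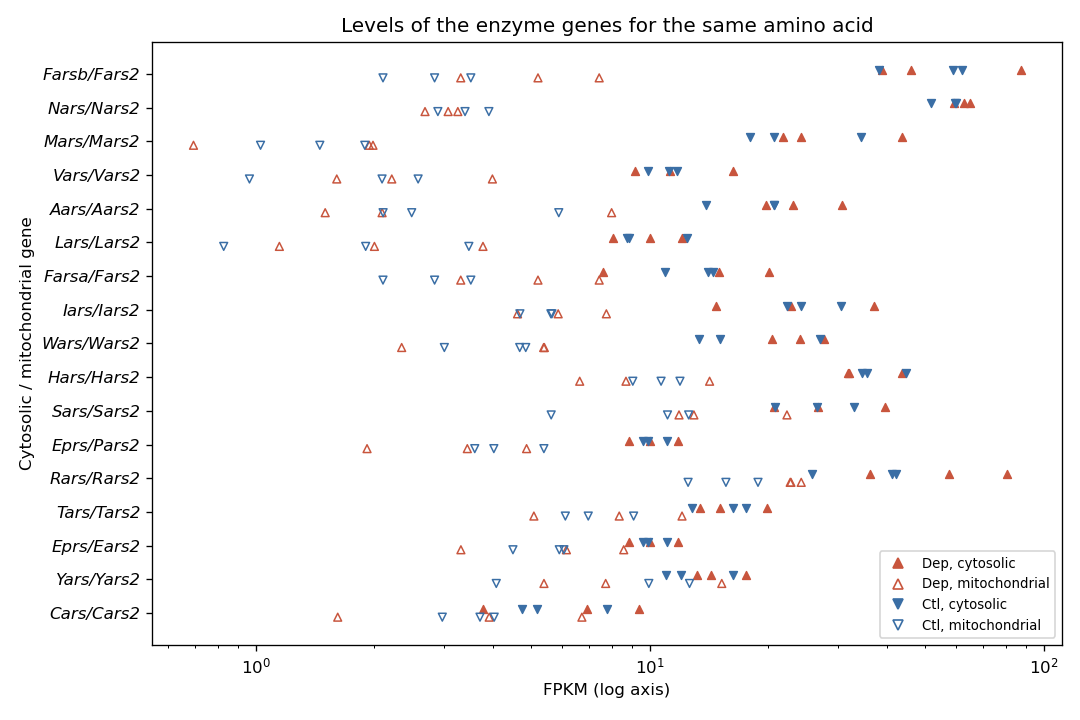
FPKM (log axis) of the cytosolic (filled) and mitochondrial (open) synthetase genes for the same amino acid (17 of the 18 pairs) in 3 Dep (upward triangles) and 3 Ctl embryos (downward triangles), 1 symbol per embryo. The cytosolic gene lies to the right in every embryo for each pair drawn except Yars/Yars2, and the symbols of Dep and Ctl are mixed in most rows.

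Setting Dep against Ctl asks whether sperm small RNAs of depressive males alter transcripts of the embryo, here those for tRNA charging. No synthetase gene passed the test: 0 of 37 had an adjusted p below 0.05 (limma over all 12149 genes, Benjamini-Hochberg adjustment), and the share called among all genes was 0%. At an unadjusted p below 0.05 there were also 0 of 37, against 1.85% of all genes, and edgeR and DESeq2 on reads recovered from the table likewise gave 0 members. Most members nevertheless had somewhat higher mean log2 levels in Dep. This held for 16 of 20 cytosolic members (median log2 fold 0.12) and for 11 of 17 mitochondrial members (median 0.11). Without Ctl 3 the cytosolic count was 10 of 20 (median 0.011). Over all genes 48.2% had a positive log2 fold, and the median was -0.02. The standard errors were larger than these medians in every member, from 0.25 to 0.38 for cytosolic and from 0.28 to 0.62 for mitochondrial genes on the log2 scale.

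**Figure D2:**
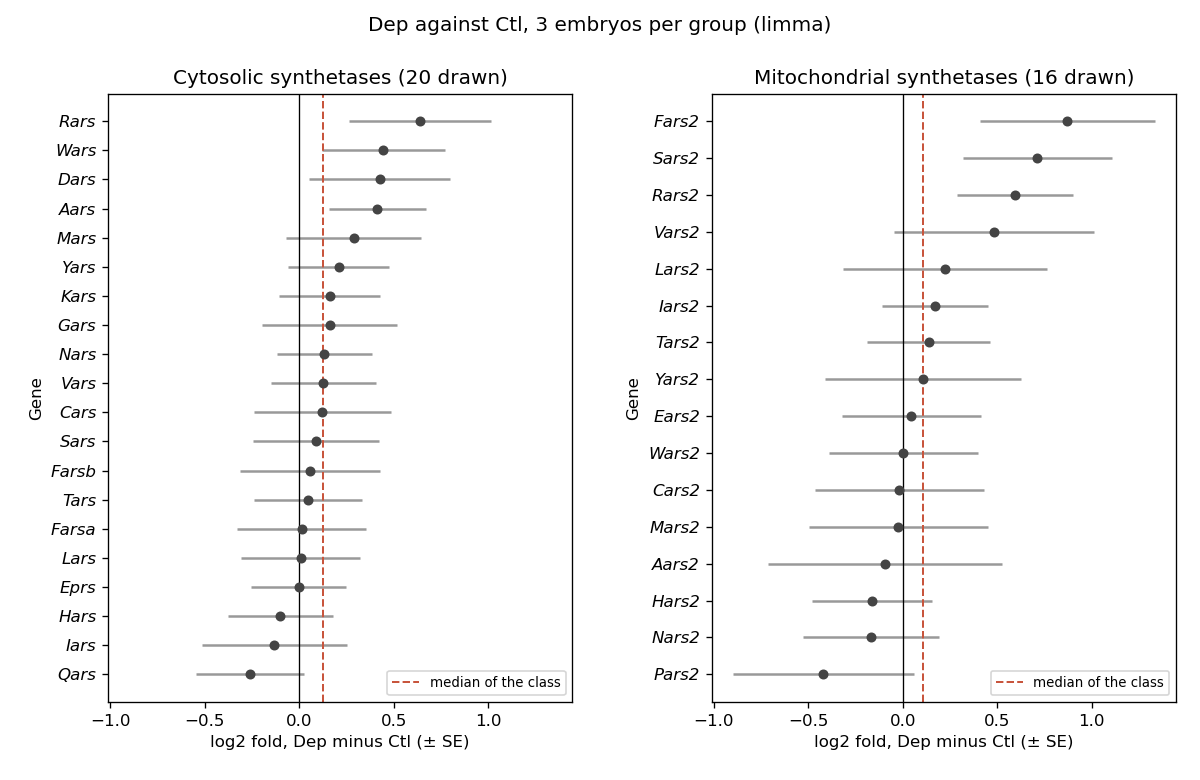
Log2 fold of Dep minus Ctl (x axis, limma, bars ± SE, 3 embryos per group) for the 20 cytosolic (left) and 16 of the 17 mitochondrial (right) synthetase genes. The dashed lines mark the medians of 0.12 and 0.11 over the whole classes, and the bars of most genes cross 0.

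The groups did not overlap for 2 of the 37 genes, Aars and Rars2, both higher in Dep. Among all genes 6.9% did not overlap in either direction and 3.09% did so with higher values in Dep, so the count of members lies near the background. Taking embryos that carry the same number in both groups together, 7 of 20 cytosolic members (Rars, Aars, Wars, Dars, Mars, Kars and Nars) and 4 of 17 mitochondrial members (Rars2, Fars2, Iars2 and Lars2) were higher in Dep in each of the 3 pairs. The share among all genes was 12.6%. The labels do not state what the number stands for, and a check of the data, given with the processing, was the reason to treat it as a pairing. With the number as a block, the unadjusted p was below 0.05 for 3 members, Rars (0.0181), Fars2 (0.0323) and Rars2 (0.0451), and the lowest adjusted p of any member was 0.941 (limma). With that block, 420 genes in all passed the unadjusted threshold, against 225 without it.

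Among the cytosolic members, Rars had the smallest unadjusted p. It encodes the arginine enzyme, a part of the multi-synthetase complex, and spans 35808381 to 35834506 on chromosome 11 (GRCm38). Rars had 3874, 4720 and 1916 normalized counts in Dep 1, 2 and 3, against 2658, 2395 and 1458 in Ctl 1, 2 and 3. The groups overlapped, as Dep 3 lay below Ctl 1 and Ctl 2. Its log2 fold was 0.64 ± 0.38 (SE), and it lay between 0.37 (without Dep 2) and 1.02 (without Dep 3) with 1 embryo left out, with an adjusted p of 0.9997 (limma), the value that every member had.

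Aars, the alanine enzyme, was the cytosolic gene whose groups did not overlap. It had 3824, 3891 and 4669 normalized counts in Dep 1, 2 and 3, against 2529, 3455 and 3358 in Ctl 1, 2 and 3. The lowest Dep embryo lay above the highest Ctl embryo by less than the range within either group, and the log2 fold was 0.41 ± 0.25 (SE; limma adjusted p = 0.9997) and 0.27 without Ctl 1. In the annotation 14.3% of the exon bases of Aars are shared with Exosc6 on the same strand, so part of its reads is of uncertain origin.

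Wars, the tryptophan enzyme, is also known as an interferon-inducible gene in human cells. It had 1471, 1733 and 1356 normalized counts in Dep 1, 2 and 3 and 1015, 1677 and 806 in Ctl 1, 2 and 3. Ctl 2 lay inside the range of the Dep embryos, and the log2 fold was 0.44 ± 0.33 (SE), with 0.21 without Ctl 3 and 0.74 without Ctl 2. Dars, the aspartate enzyme of the complex, had 6324, 3928 and 2503 normalized counts in Dep 1, 2 and 3 and 3960.1, 3123 and 2071 in Ctl 1, 2 and 3. Its groups overlapped broadly, with a log2 fold of 0.43 ± 0.37 (SE) that was 0.089 without Dep 1 and 0.17 without Ctl 3. Mars, the methionine enzyme, which also charges the initiator tRNA, had 1560.1, 2712 and 1359 normalized counts in Dep 1, 2 and 3 and 1388, 2116 and 1075 in Ctl 1, 2 and 3. Its log2 fold was 0.29 ± 0.36 (SE), and without Dep 2 it was -0.011.

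Qars, the glutamine enzyme of the complex, leaned the other way. It had 1206, 2001 and 1375 normalized counts in Dep 1, 2 and 3, against 1731.5, 2022 and 1629 in Ctl 1, 2 and 3. Dep 2 lay inside the range of the Ctl embryos, and the log2 fold was -0.26 ± 0.29 (SE), with -0.11 without Dep 1. Over the 8 enzymes of the complex, 5 were higher in Dep and the rest lower, with a median log2 fold of 0.09 (0.047 without Dep 1) and 0 past the adjusted threshold.

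Eprs is the bifunctional enzyme that charges both glutamate and proline tRNA in the cytosol, joining an enzyme of either structural class in 1 chain. It was the most even of all members between the groups. Eprs had 3344, 3882 and 2961 normalized counts in Dep 1, 2 and 3 and 3928, 3135 and 3134 in Ctl 1, 2 and 3, a log2 fold of -0.00 ± 0.25 (SE). Gars and Kars, the glycine and lysine genes, each encode both the cytosolic and the mitochondrial form of their enzyme. Gars had 3588, 2809 and 1947 normalized counts in Dep 1, 2 and 3 and 2904, 3224 and 1498 in Ctl 1, 2 and 3. Kars had 3135, 3264 and 2543 in Dep 1, 2 and 3 and 2932, 3041 and 2084 in Ctl 1, 2 and 3. The groups overlapped in both genes and both log2 folds were 0.16, with an SE of 0.36 for Gars and 0.27 for Kars. The fold of Gars was -0.18 without Ctl 3 and -0.04 without Dep 1, and that of Kars was -0.011 without Ctl 3.

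The remaining 11 cytosolic genes had log2 folds from -0.13 (Iars) to 0.21 (Yars). Iars, the isoleucine enzyme, varied most between the Dep embryos, with 4077, 1412 and 1976 normalized counts in Dep 1, 2 and 3 and 3159, 2119.9 and 2232 in Ctl 1, 2 and 3. Yars had the least spread within Dep, a coefficient of variation of 5.05% against 56.4% for Iars. Farsa and Farsb, the subunits of the phenylalanine enzyme, had log2 folds of 0.01 and 0.06. Leaving out Eprs, class I enzymes, with a catalytic domain of the nucleotide-binding type, were higher in 7 of 9 cytosolic genes (median log2 fold 0.13, and 0.22 without Dep 1), and class II enzymes in 9 of 10 (median 0.11).

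The C/EBP-ATF response element, to which Atf4 binds in a dimer with C/EBP proteins, was found in promoters of cytosolic synthetase genes. The letters TGATGNAA were searched on both strands in RefSeq promoter windows of GRCm38.p6, each 300 bases, with 250 before the gene's start. Windows were found for 13 of 20 cytosolic genes, and 5 of them (38.5%) held the element: Aars, Gars, Iars, Tars and Yars. Of 14 mitochondrial genes with a window, 0 held it, which says only that these letters are not in those windows. The share was 4.51% among all 27025 genes with a promoter window, and 2.61% among the 9075 of them that were also counted in the embryos. All 5 belong to the 11 cytosolic genes listed as known Atf4 targets in mouse cells, of which 8 had a window. Genes without a window here included Rars, Wars, Vars, Hars, Lars, Nars and Cars, and Hars2 and Pars2.

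The stretches that hold the element are shown because they are found in these 5 genes among the synthetases with a window, with that of Asns, asparagine synthetase, a well-known Atf4 target, for comparison. Each is 40 bases long, 5′ to 3′ in the direction of transcription, with the element, or its reverse complement, in capitals. Positions count from 1 at the start site, and the base before it is -1. Aars has 2 elements, with first bases at -112 and 10, and those of the others lie at -30 (Gars), 8 (Iars), -15 (Tars), 4 (Yars) and -23 (Asns).
Aars, chr8:111033714-111033753 (+): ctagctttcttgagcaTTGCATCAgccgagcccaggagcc
Aars, chr8:111033832-111033871 (+): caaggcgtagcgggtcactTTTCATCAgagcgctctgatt
Gars, chr6:55037955-55037994 (+): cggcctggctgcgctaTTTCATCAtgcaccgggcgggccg
Iars, chr13:49682120-49682159 (+): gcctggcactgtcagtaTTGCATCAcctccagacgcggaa
Tars, chr15:11399650-11399689 (-): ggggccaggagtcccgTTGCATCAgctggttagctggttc
Yars, chr4:129189890-129189929 (+): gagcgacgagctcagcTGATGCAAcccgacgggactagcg
Asns, chr6:7693209-7693248 (-): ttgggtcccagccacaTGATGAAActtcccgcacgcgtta

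Both the genes with and those without the element had folds near those of the class, with no test made between them. Of the 5 with it 4 were higher in Dep, their median log2 fold was 0.16, and they had a range from -0.13 (Iars) to 0.41 (Aars), and 6 of the 8 cytosolic genes whose windows lack it were higher, with a median of 0.07. The whole list of 11 known targets had 9 higher in Dep (median 0.13), and the other 9 cytosolic genes had 7 higher (median 0.06). Without Dep 1 these medians were 0.077 and 0.089. In both lists 0 genes passed the adjusted threshold.

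Of the mitochondrial genes, Rars2, the arginine enzyme on chromosome 4 (34614957 to 34660167 in GRCm38), had the smallest unadjusted p (0.0813). It had 1403, 1147 and 1031 normalized counts in Dep 1, 2 and 3, against 1021, 624 and 758 in Ctl 1, 2 and 3. The groups were apart by the small gap between Dep 3 and Ctl 1, and the log2 fold was 0.59 ± 0.31 (SE; limma adjusted p = 0.9997). The arginine genes thus headed both classes by unadjusted p in this fit, but not in others. Fars2 had a smaller unadjusted p than Rars2 with edgeR (0.0657 against 0.0928) and with DESeq2 (0.0529 against 0.0970). The same held in limma with the number as a block (0.0323 against 0.0451).

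Fars2, the mitochondrial phenylalanine enzyme, is 1 chain where the cytosolic enzyme has 2 kinds of subunit. It had the highest log2 fold of all members, 0.87 ± 0.46 (SE), and 0.50 without Dep 1. Of its exon bases 8.72% are shared with Nrn1 and 2.00% with Lyrm4, both on the other strand. As the libraries keep no strand, part of its reads is of uncertain origin. Fars2 had 894, 542 and 312 normalized counts in Dep 1, 2 and 3, against 395, 294 and 212 in Ctl 1, 2 and 3, so Dep 3 lay among the Ctl embryos. Sars2, the mitochondrial serine enzyme, had 896, 1339.6 and 644 normalized counts in Dep 1, 2 and 3 and 365, 748 and 644 in Ctl 1, 2 and 3, with a log2 fold of 0.71 ± 0.39 (SE) that was 0.40 without Ctl 1 and 0.44 without Dep 2. Dep 3 equalled Ctl 3 to the nearest count.

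Vars2, the mitochondrial valine enzyme, had 253, 159 and 356 normalized counts in Dep 1, 2 and 3 and 103, 205 and 247 in Ctl 1, 2 and 3, a log2 fold of 0.48 ± 0.53 (SE). Its groups overlapped, and the fold was 0.11 without Ctl 1 and 0.21 without Dep 3. Of the exon bases of Vars2 8.52% are shared with Gm20483 on the other strand. Pars2, the proline enzyme, had the lowest fold of the members, -0.42 ± 0.48 (SE), with 124, 273 and 174 normalized counts in Dep 1, 2 and 3 against 218, 299.7 and 218 in Ctl 1, 2 and 3. Without Dep 1 that fold was -0.15, and without Dep 2 it was -0.72.

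A further 11 mitochondrial genes had log2 folds from -0.17 (Nars2) to 0.22 (Lars2). Lars2, the leucine enzyme, differed more between embryo numbers than between groups, with 266, 402 and 685 normalized counts in Dep 1, 2 and 3 and 179.9, 379 and 675 in Ctl 1, 2 and 3. Hars and Hars2, the histidine enzymes, start head to head on chromosome 18 with their annotated starts 197 bases apart, and they share 195 exon bases on opposite strands. Their log2 folds were -0.10 and -0.16. Iars2, for isoleucine, was among those higher in Dep in all 3 pairs (log2 fold 0.17 ± 0.28, SE), and 22.9% of its exon bases are shared with Rab3gap2 on the other strand, so that reads of both cannot be told apart in libraries without strand. Without Dep 1 the mitochondrial median was 0.37, with 14 of 17 genes higher in Dep, and without Dep 3 it was -0.12, with 7 of 17 higher. Dep 1, the embryo with the most genes at 0 reads, had the lowest value of all embryos for 8 of 17 mitochondrial genes and for 3 of 20 cytosolic ones, against 29.2% of all genes. Reads of genes encoded by the mitochondrial genome itself made up 3.71%, 3.05% and 4.003% of the library in Dep 1, 2 and 3. In Ctl 1, 2 and 3 they made up 7.02%, 3.85% and 7.04%. The part of either in the class medians was not tested.

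**Figure D3:**
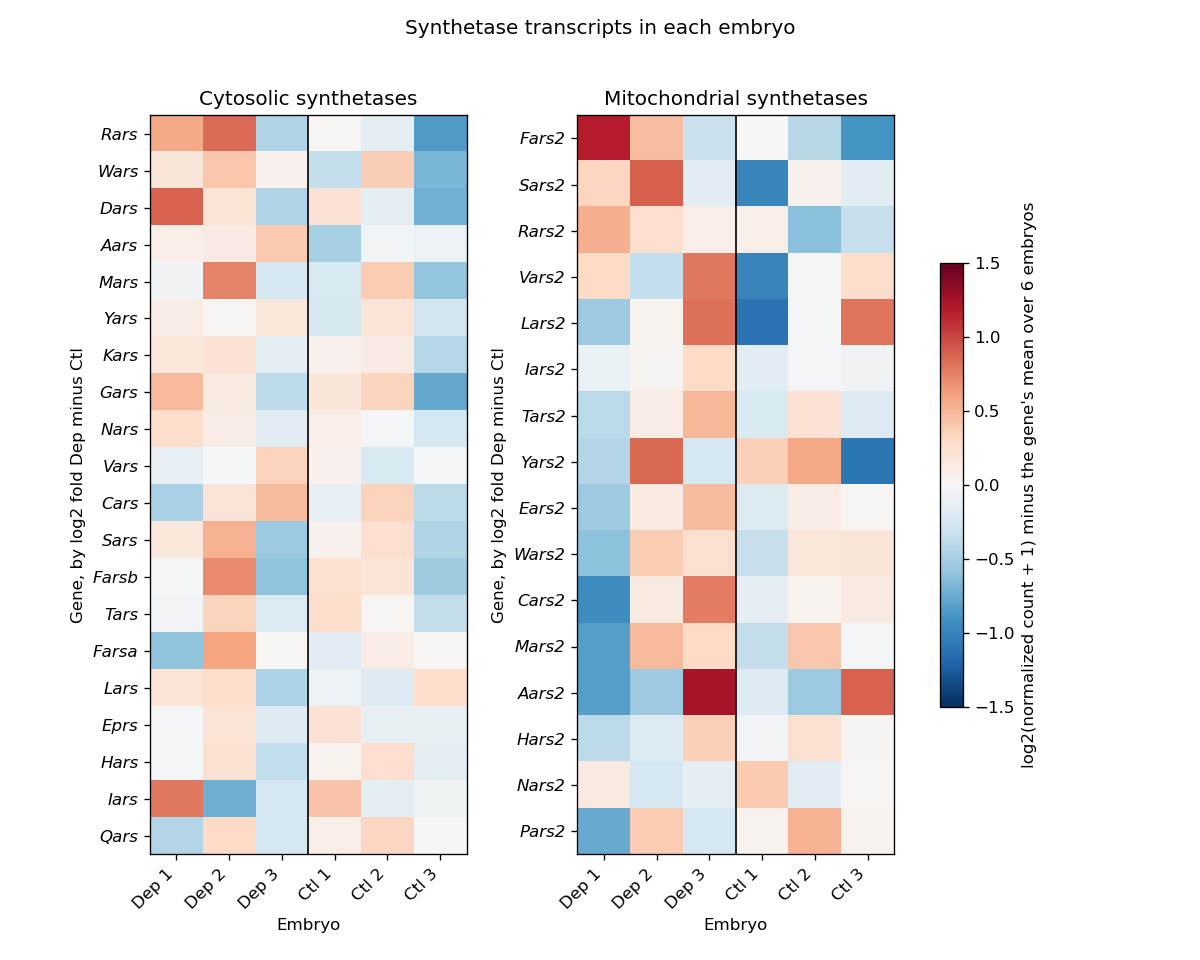
Level of the 20 cytosolic and 16 of the 17 mitochondrial synthetase genes in each of 3 Dep and 3 Ctl embryos as log2(normalized count + 1) minus the gene's mean over 6 embryos, red above and blue below that mean. Genes run from the highest to the lowest log2 fold, cytosolic on the left and mitochondrial on the right. Dep 1 is lowest for 8 of 17 mitochondrial genes, against 29.2% of all genes. Ctl 3 is lowest for 9 of 20 cytosolic genes, against 14.3% of all genes.

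The balance between the classes differed more between embryo numbers than between groups. The mean log2 level of the cytosolic genes exceeded that of the mitochondrial genes by 2.37, 2.10 and 1.62 in Dep 1, 2 and 3, and by 2.33, 2.14 and 1.74 in Ctl 1, 2 and 3. Same-numbered embryos differed by 0.03, -0.03 and -0.12 in this balance (Dep minus Ctl), while its SD within a group was 0.38 in Dep and 0.30 in Ctl. The group means were 2.03 in Dep and 2.07 in Ctl. The number entered no step of choosing the genes, and this pattern was noticed after the values were seen. The numbers were taken as pairs because equal-numbered embryos covary over all genes of these data, the members included. Likeness within a number is therefore not independent of that check. Within each pair of equal number the Dep embryo was higher in the mean of both classes, by 0.09, 0.18 and 0.16 for cytosolic and by 0.06, 0.21 and 0.28 for mitochondrial genes. The mean log2 level of the cytosolic genes was 11.01 ± 0.22 in Dep and 10.87 ± 0.22 in Ctl, and that of the mitochondrial genes 8.98 ± 0.26 in Dep and 8.80 ± 0.15 in Ctl (SD, n = 3 each). Over the 3 pairs the difference averaged 0.14 ± 0.04 for cytosolic and 0.18 ± 0.11 for mitochondrial genes (SD). It varied less between pairs than the levels did between embryos of a group. This smaller spread follows in part from pairing embryos by that check, and it was not tested. No p is given for these scores.

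**Figure D4:**
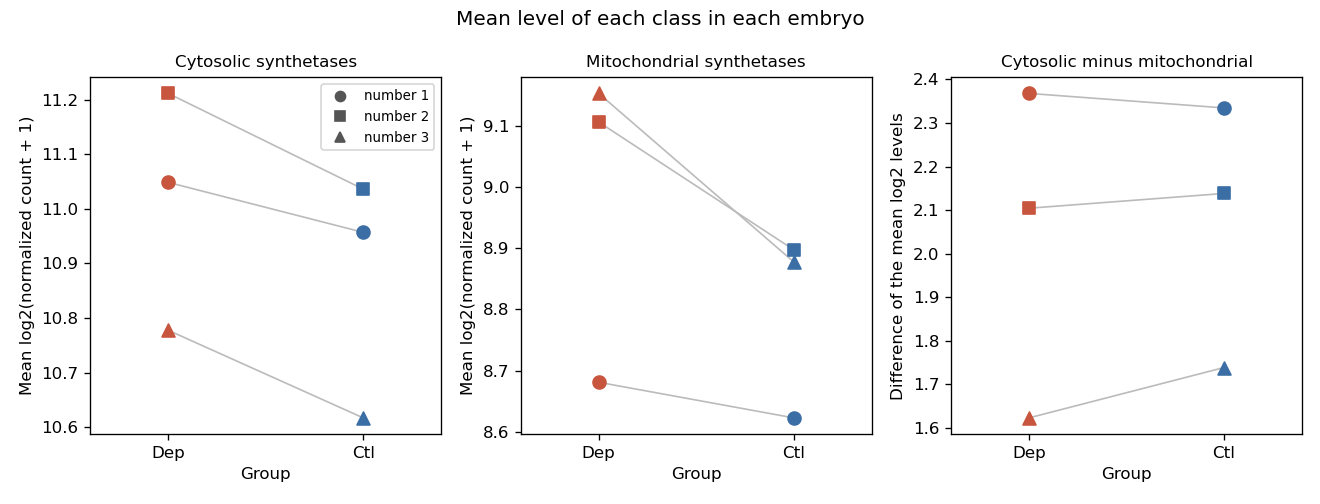
Mean log2(normalized count + 1) of the 20 cytosolic genes (left), of the 17 mitochondrial genes (middle) and their difference (right) in Dep and Ctl embryos, with symbols for the number in the labels and lines joining equal numbers. The Dep embryo is the higher of each pair in the left and middle panels, and the right panel separates the numbers, from 1.62 and 1.74 for number 3 to 2.37 and 2.33 for number 1.

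As CPM, the share of reads in listed genes, cytosolic synthetases took 2482, 2962 and 2381 CPM in Dep 1, 2 and 3 and 2339, 2575 and 1994 in Ctl 1, 2 and 3. Mitochondrial synthetases took 419, 610.5 and 671 CPM in Dep 1, 2 and 3 and 402, 508 and 507 in Ctl 1, 2 and 3. Both shares were higher in the Dep embryo of every number, and the groups overlapped in both. The reads in listed genes include those of the mitochondrial genome, whose share, given above, was higher in the Ctl embryo of every number. Its part in these CPM differences was not tested.

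**Figure D5:**
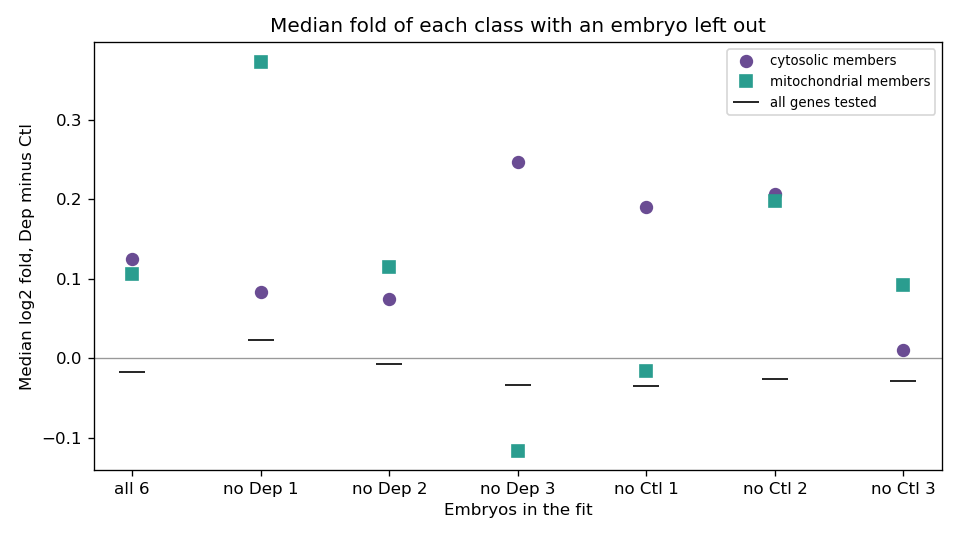
Median log2 fold (Dep minus Ctl) of the cytosolic (circles) and mitochondrial (squares) members and of all genes tested (bars) with all 6 embryos and with each embryo left out. The cytosolic median lies between 0.01 and 0.25, and the mitochondrial one between -0.12 without Dep 3 and 0.37 without Dep 1.

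Other genes of the Atf4 pathway gave a mixed picture. Atf4 itself had 4683, 3205 and 3780.2 normalized counts in Dep 1, 2 and 3 and 3322, 3232 and 3661 in Ctl 1, 2 and 3, a log2 fold of 0.18 ± 0.25 (SE; 0.034 without Dep 1). Asns, whose element stands with those of the synthetases, had 937, 1402 and 704 in Dep 1, 2 and 3 and 221, 892 and 234 in Ctl 1, 2 and 3, a log2 fold of 1.44 ± 0.54 (SE). Its unadjusted p was 0.0222, its adjusted p 0.9997 (limma), and Ctl 2 lay inside the Dep range. Phgdh, the first enzyme of serine synthesis, had 2998, 5071 and 3250.1 in Dep 1, 2 and 3 and 2375, 2919.7 and 1672 in Ctl 1, 2 and 3, without overlap (log2 fold 0.70 ± 0.31, SE). Ppp1r15a, which directs a phosphatase to the initiation factor Eif2s1, also did not overlap but was lower, with 259, 390.3 and 335 in Dep 1, 2 and 3 and 518, 829 and 558 in Ctl 1, 2 and 3 (log2 fold -0.94 ± 0.37, SE). Over the 16 measured amino acid synthesis and stress targets of Atf4, 8 were higher in Dep, the median log2 fold was 0.07, and 0 passed the adjusted threshold. Without Dep 1 that median was -0.029. Over the 9 measured genes that sense uncharged tRNA or act with Atf4, 5 were higher and the median was 0.02, against 7 and 0.062 without Dep 1.

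Partners of the synthetases had folds of either sign. Aimp1 and Aimp2, scaffold proteins of the multi-synthetase complex, had 2552, 2774 and 946 and 1678, 1446 and 736 normalized counts in Dep 1, 2 and 3. In Ctl 1, 2 and 3 they had 1289, 1502 and 894 (Aimp1) and 1033, 956 and 425 (Aimp2). Their log2 folds were 0.65 ± 0.42 and 0.70 ± 0.43 (SE), while that of the third scaffold gene, Eef1e1, was -0.10 ± 0.34 (SE). Aimp1 had 0.37 without Dep 2, Aimp2 0.29 without Ctl 3, and Eef1e1 0.21 without Dep 3. In each of these scaffolds the embryos numbered 3 were the lowest of their group.

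Mitochondria have no glutamine enzyme of this family and make glutaminyl-tRNA through an amidotransferase with the subunits Qrsl1, Gatb and Gatc. Gatc had 405, 407 and 658 normalized counts in Dep 1, 2 and 3 and 935, 628 and 858 in Ctl 1, 2 and 3, a log2 fold of -0.74 ± 0.35 (SE), with overlap of Dep 3 and Ctl 2. Qrsl1, the catalytic subunit, had a log2 fold of 0.33 ± 0.28 and Gatb one of -0.05 ± 0.35 (SE). None of the 3 passed the adjusted threshold.

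In tRNA maturation and export, 15 of 21 genes were higher in Dep, the median log2 fold was 0.18, and 0 were past the adjusted threshold. Without Dep 1, 12 of 21 were higher and the median was 0.10. Trit1, which adds an isopentenyl group to adenosine in the anticodon loop, had 584, 509 and 523 normalized counts in Dep 1, 2 and 3 and 325, 369 and 417 in Ctl 1, 2 and 3, without overlap (log2 fold 0.54 ± 0.33, SE). Tsen54, a subunit of the tRNA splicing endonuclease, had a log2 fold of 0.95 ± 0.39 (SE). Xpot, the exportin that carries tRNA out of the nucleus, had one of -0.22 ± 0.27 (SE). In a list of mitochondrial translation factors, which also holds Tfam, Polrmt, Mto1, Gtpbp3 and Trmu, 13 of 17 genes were higher (median 0.20). In a list of cytosolic elongation and release factors, which also holds Eef2k and Dph genes, 11 of 15 were higher (median 0.09). Each list had 0 past the adjusted threshold. Without Dep 1 the elongation and release list had 7 of 15 higher and a median of -0.032. Mtif2, the mitochondrial initiation factor, had 1152, 1336 and 993 normalized counts in Dep 1, 2 and 3 and 863, 736 and 949.7 in Ctl 1, 2 and 3, without overlap. Of the 6 measured synthetase-like and proofreading genes, 5 were higher in Dep (median 0.26), among them Aarsd1, an alanyl-tRNA editing protein, with a log2 fold of 0.53 ± 0.37 (SE) that was 0.14 without Dep 2.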

How the data were processed

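RNA of 6 single blastocysts was measured, 3 Dep and 3 Ctl. Each embryo was lysed whole and its RNA reverse transcribed, per the labels' protocols, with SMART-Seq v4, a kit that keeps no strand. HISAT2 and Cufflinks 2.2.1 appear in the submitters' processing notes, as does mm10, with no role given. How reads were counted is not given in the sources used here. In the deposited table each gene has a signal value for every embryo, which its steps show to be reads over a size factor of that library (here "normalized counts"). Its other columns, per the file headers, are a mean signal, log2 fold changes and their errors, a score (the test statistic) and p-values. Of these deposited columns only the mean signal was used, for the lowest mean given below. Those of the authors' own test were not used for any printed value. Dividing by the step of each library gave whole reads for 100% of values, within 0.01. The step of Dep 2 lies near 1, so its reading rests on the other columns. No gene with a mean signal below 14.2 is listed. The labels mention no molecular identifiers, so a read need not be a molecule, and p-values cover only the spread between these embryos.

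GENCODE M21 (GRCm38, the assembly that mm10 names) gave symbols, coordinates and exon bases and matched 11829 of 12149 identifiers. Levels between genes are FPKM from recovered reads. The test was limma 3.58.1 with a mean-variance trend on log2(normalized count + 1), Dep minus Ctl, over all genes, adjusted by Benjamini-Hochberg and called at 0.05. All log2 folds use that log scale. The design had no other covariate. edgeR 4.0.16 and DESeq2 1.42.0 on recovered reads, other pseudocounts, a minimum mean of 100 normalized counts, TMM scaling, library weights, a replicate block and each embryo left out were the alternatives. The fits were tested on simulated data with the same dispersion for all genes and larger folds than those of any member. That test does not cover shifts as small as those seen here. R was 4.3.3 and Python 3.11.15. Members described in full were the 6 of smallest unadjusted p per class, those whose groups do not overlap, and Gars, Kars and Eprs. One member that this rule selects is not reported by itself here, and counts and medians of its class include it. Of other lists, up to 3 genes of smallest p were eligible, plus Atf4, Asns and Xpot. Iars, Lars2, Hars, Hars2 and other members named by their values fall outside this rule and were chosen after their values were seen. The members and lists were chosen with earlier results of these data known, and lists have no test. Promoter windows came from RefSeq on GRCm38.p6, matched by symbol or synonym.

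Embryos of equal number deviated together from their group means, with r across genes of 0.133 (number 1), 0.151 (number 2) and 0.129 (number 3). Between embryos of unequal number r ran from -0.158 to 0.044. As each r of equal number is over 0.1, the numbers were treated as pairing the embryos. The cut of 0.1 was not set against a reference, so these values do not show that the embryos are paired. This pairing rests on the check alone, since the labels do not state it.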

Additional observations from a re-analysis of the deposited data

How the results depend on the processing

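In the 14 alternatives run, 0 synthetase genes passed the adjusted threshold. Over all genes that count was 0 except with DESeq2 (1). Genes with an unadjusted p below 0.05 numbered 399 with library weights, 420 with the replicate block, and from 122 to 576 with an embryo left out. Cytosolic members at that threshold numbered 1 with the block and from 0 to 1 with an embryo left out, and mitochondrial members 2 and from 0 to 3. The count of cytosolic members higher in Dep ran from 10 to 16 with an embryo left out, and that of mitochondrial members from 7 to 14. Both lows of these counts came without Ctl 3 (cytosolic) and without Dep 3 (mitochondrial). The medians ran from 0.01 to 0.25 for cytosolic members and from -0.12 (without Dep 3) to 0.37 (without Dep 1) for mitochondrial ones, and the mitochondrial median was -0.02 without Ctl 1. The block leaves folds unchanged and ended or made no adjusted call. Library weights turned the log2 folds of Eprs (0.071) and Gatb (0.11). With an embryo left out, 7 of 44 genes with folds recomputed turned: Mars (-0.011 to 0.55), Gars (-0.18 to 0.40), Kars (-0.011 to 0.27), Eprs (-0.10 to 0.11), Eef1e1 (-0.46 to 0.21), Gatb (-0.28 to 0.082) and Cebpb (-2.65 to 0.30). The cause was not tested. The other 37 genes had 1 direction in every alternative. No scaling moved the median of all genes by over 0.1. In the fit without the block, the standard errors of single members were 0.25 or more, above the class medians.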

Other observations

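Amino acid transporter genes had mostly lower values in Dep, and that majority rested on 1 embryo. Of 17 measured amino acid transporter genes, 13 were lower in Dep (median log2 fold -0.57), and 0 passed the adjusted threshold (limma). Without Dep 1, 9 of 17 were higher and the median was 0.01. Slc6a14, a carrier of neutral and cationic amino acids, had 2038, 309.8 and 453 normalized counts in Dep 1, 2 and 3 and 1699.5, 1457 and 982 in Ctl 1, 2 and 3. Slc43a2, which carries large neutral amino acids, had 0, 92.4 and 91.0 in Dep 1, 2 and 3 and 118, 147 and 71.5 in Ctl 1, 2 and 3. Slc38a4, an imprinted carrier, had 2074, 2019 and 1438 in Dep 1, 2 and 3 and 2682, 4060.2 and 1803 in Ctl 1, 2 and 3, with overlap of the groups. In Slc6a14 and Slc38a4, Dep 1 was the highest Dep embryo. With 1 embryo left out, the log2 fold of Slc6a14 ran from -1.84 to -0.48 and that of Slc38a4 from -0.86 to -0.27. That of Slc43a2 ran from -3.50 to -0.23.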
